A study of Mus musculus with 2 samples.

Results

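Ccnd1, Ccnd2 and Ccnd3 encode the D-type cyclins, and Cdk4 and Cdk6 encode the kinases that these cyclins activate. They were taken by gene symbol, and 5 of the 27998 listed genes are described here. D cyclins couple growth signals to the cell cycle: a D cyclin bound to Cdk4 or Cdk6 phosphorylates the pocket proteins Rb, p107 and p130, which frees E2F factors to switch on genes of S phase. INK4 proteins inhibit the kinases directly, whereas Cip/Kip proteins bind the assembled complexes. In the mouse retina, Ccnd1 is known as the main D cyclin of progenitor cells, and Ccnd3 is known from Müller glia.

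The data come from peripheral retina of mice at postnatal day 8, prepared as droplet-based 3′ libraries whose transcripts are counted by unique molecular identifiers (UMIs). DKO_Skp2het mice carried alphaCre, Rb f/f, p107-/- and Skp2+/- and are labelled tumor-resistant. DKO mice carried alphaCre, Rb f/f and p107-/- and are labelled tumor-prone. Both groups therefore share the Rb deletion, limited to the peripheral area where alpha-Cre acts, and the loss of p107. Each genotype is 1 library, the number of pooled animals is not given in the sources used here, and no wild-type retina was analysed here. The question addressed is which D cyclin and which kinase each cell type uses, by dividing state and library.

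The DKO_Skp2het library held 5196 barcodes and 25766024 UMIs, and the DKO library held 3621 barcodes and 24413761 UMIs. After filtering, 4978 DKO_Skp2het cells and 3515 DKO cells were kept, with a median of 3800 UMIs per cell in DKO_Skp2het and 4866 in DKO. The lowest UMI count of a barcode was 2387 in DKO_Skp2het and 3420 in DKO, and 30 barcode sequences occurred in both libraries. Dividing cells, defined as those with 3 or more UMIs of 26 proliferation genes after thinning to 1500 UMIs, made up 47.2% of DKO_Skp2het cells (45.8 to 48.6) and 59.0% of DKO cells (57.3 to 60.6). Skp2 itself stood at 56.9 CPM, the UMIs of a gene scaled to a common total, in DKO_Skp2het and 80.5 CPM in DKO, a ratio of 0.706 (0.658 to 0.758). Without replicate libraries no test was possible. All intervals are exact or approximate 95% intervals that cover counting error alone and treat UMIs as independent.

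The annotation places Ccnd1 (ENSMUSG00000070348) at chr7:144929931-144939925 on the minus strand of GRCm38 and Ccnd2 (ENSMUSG00000000184) at chr6:127125162-127152193 on the minus strand. Ccnd3 (ENSMUSG00000034165) lies at chr17:47505051-47599691, Cdk4 (ENSMUSG00000006728) at chr10:127063534-127067920 and Cdk6 (ENSMUSG00000040274) at chr5:3341485-3531008, all on the plus strand. None overlaps another gene on its own strand. On the opposite strand, Ccnd1 overlaps LTO1, Ccnd3 overlaps Bysl, Cdk4 overlaps Tspan31, and Ccnd2 and Cdk6 overlap provisionally named genes, and whether the authors' counting used strand is not given in the sources used here.

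Promoter windows of 250 bases before to 50 after the start (RefSeq, GRCm38.p6) were matched by symbol for Cdk4, Cdk6 and Ccnd3, the last with 2 starts. The windows of both kinases are shown because the kinases differ in their distribution over cell types. Capitals mark the E-box CACGTG and the GC box, GGGCGG or its reverse complement CCGCCC. The windows lie at chr10:127063285-127063584 for Cdk4 and chr5:3343643-3343942 for Cdk6, both on the plus strand.
Cdk4: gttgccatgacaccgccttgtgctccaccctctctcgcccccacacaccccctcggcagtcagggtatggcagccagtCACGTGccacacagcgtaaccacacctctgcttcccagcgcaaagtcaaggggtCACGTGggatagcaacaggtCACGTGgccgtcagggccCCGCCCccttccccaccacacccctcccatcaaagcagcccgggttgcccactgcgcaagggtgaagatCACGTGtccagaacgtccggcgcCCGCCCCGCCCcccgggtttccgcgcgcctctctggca
Cdk6: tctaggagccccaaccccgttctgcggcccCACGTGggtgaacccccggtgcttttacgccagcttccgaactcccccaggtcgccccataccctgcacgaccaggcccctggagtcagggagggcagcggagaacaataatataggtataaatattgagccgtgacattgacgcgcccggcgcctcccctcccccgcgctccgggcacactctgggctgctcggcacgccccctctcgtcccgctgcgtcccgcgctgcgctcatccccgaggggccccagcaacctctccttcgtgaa
The E-box, the recognition sequence of Myc and related factors, occurred 4 times in the Cdk4 window and 1 time in the Cdk6 window. Of 32851 mouse promoter windows of this length, 7.15% held at least 1 E-box, and 8 windows (0.0244%) held 4 or more. The Cdk4 window also held 3 GC boxes, of which the last pair overlap by 1 base, and 35.7% of all windows held at least 1. The Ccnd3 windows held 2 GC boxes each and no E-box. Searched on both strands, the letters TGACGTCA (a cyclic AMP response element), TGANTCA (an AP-1 site) and TTTGGCGC (an E2F site) were in none of the 4 windows of the 3 genes. These matches are descriptions of sequence, and 3′ tags do not show which start a transcript used.

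Over all cells, Cdk4 was by far the most abundant of the 5 genes and Ccnd2 the least. Each transcript of a 3′ library gives 1 tag, so levels are set side by side without a length term, although capture can differ between genes. Ccnd1 stood at 45.7 CPM in DKO_Skp2het (1089 UMIs) and 39.5 CPM in DKO (923 UMIs). Ccnd3 was of the same order, at 49.5 CPM in DKO_Skp2het and 38.8 CPM in DKO. Ccnd2 reached 9.83 CPM in DKO_Skp2het (234 UMIs) and 7.02 CPM in DKO (164 UMIs). Cdk4 stood at 618 CPM in DKO_Skp2het and 580 CPM in DKO. Cdk6 stood at 25.9 CPM in DKO_Skp2het and 21.6 CPM in DKO, so that it gave 4.02% of kinase UMIs in DKO_Skp2het (3.71 to 4.34) and 3.59% in DKO (3.29 to 3.91).

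The main D cyclin differed between cell classes. Classes were named from marker genes after clustering without the genes of cell cycle lists and without the 5 genes themselves. The clusters still split in part by dividing state: all retinal progenitor-like and neurogenic progenitor-like cells were dividing. Ccnd1 gave 43.5% of all D cyclin UMIs in DKO_Skp2het (41.6 to 45.5) and 46.3% in DKO (44.1 to 48.5). Ccnd3 gave 47.1% in DKO_Skp2het (45.1 to 49.1) and 45.5% in DKO (43.3 to 47.7). Ccnd2 gave 9.36% in DKO_Skp2het (8.24 to 10.6) and 8.22% in DKO (7.06 to 9.52). By class, Ccnd1 had the larger share in retinal progenitor-like cells and clusters 2 and 15, Ccnd3 in cone-like cells and cluster 12, and Ccnd2 in astrocyte-like cells. Ccnd3 was also the larger in neurogenic progenitor-like cells, amacrine and horizontal precursor-like cells and cluster 8. Its intervals there reached below an even share in both libraries. In Müller glia-like cells Ccnd1 and Ccnd3 had nearly even shares.

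**Figure D1:**
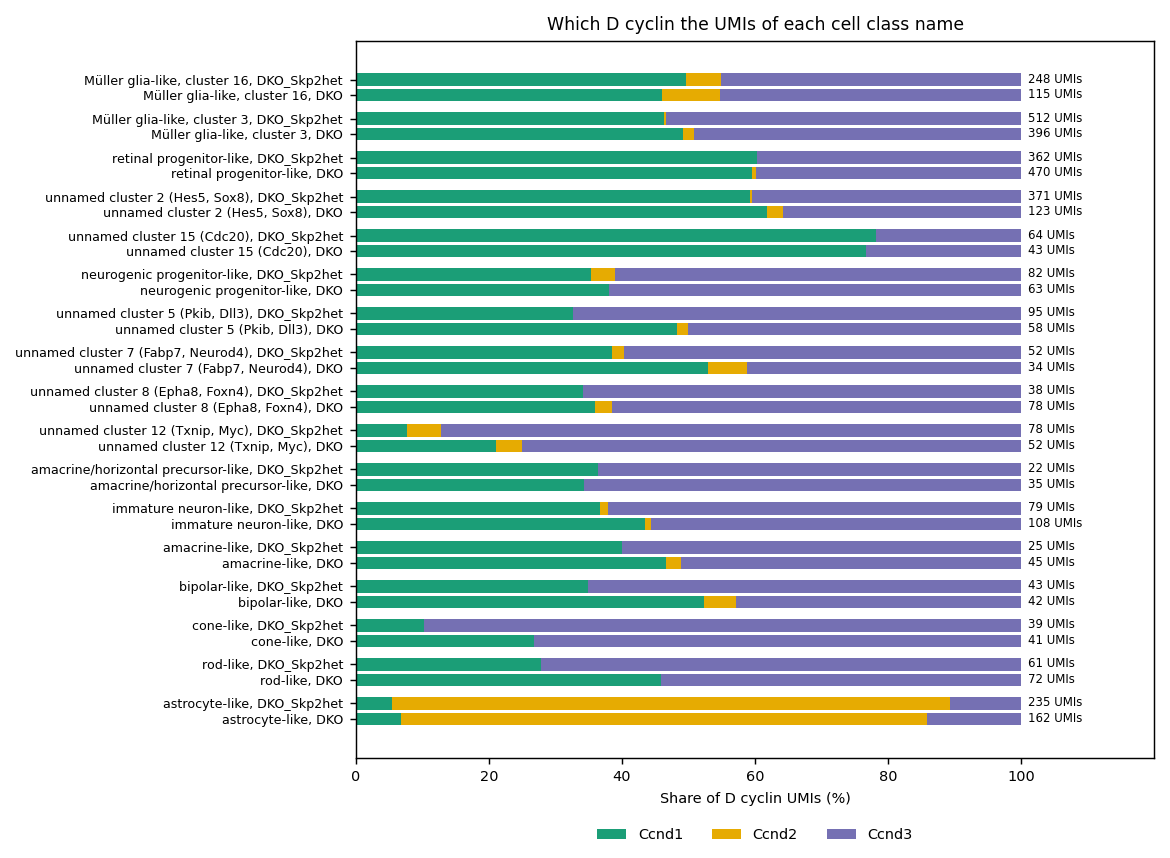
Share of D cyclin UMIs (%) that named Ccnd1, Ccnd2 or Ccnd3 in each cell class, DKO_Skp2het above DKO, for classes with at least 20 D cyclin UMIs in each library, with the UMI number at the right. Ccnd1 made up 78.1% in DKO_Skp2het and 76.7% in DKO of cluster 15, whereas Ccnd2 made up 83.8% in DKO_Skp2het and 79.0% in DKO of astrocyte-like cells.

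Among classes with at least 30 cells in each library, Ccnd1 was highest in Müller glia-like cells, retinal progenitor-like cells and clusters 2 and 15. In Müller glia-like cells it reached 130 CPM in DKO_Skp2het (117 to 144) and 123 CPM in DKO (108 to 139). In retinal progenitor-like cells, all of which were dividing, it reached 88.9 CPM in DKO_Skp2het (77.5 to 101) and 103 CPM in DKO (91.1 to 115). Cluster 2, unnamed but led by the Notch targets Hes5 and Heyl and by Sox8, held 86.4 CPM in DKO_Skp2het and 92.8 CPM in DKO. Cluster 15, led by the mitotic genes Cdc20 and Ccnb1, held 89.8 CPM in DKO_Skp2het and 82.1 CPM in DKO. The intervals of the retinal progenitor-like cells and clusters 2 and 15 overlapped, so these neighbours in the order were not told apart, and in DKO the intervals of Müller glia-like and retinal progenitor-like cells overlapped as well.

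Not all dividing classes held a high Ccnd1 level. Neurogenic progenitor-like cells, marked by Olig2, Foxn4 and Dll4, were all dividing, yet held 14.4 CPM of Ccnd1 in DKO_Skp2het (9.66 to 20.7) and 14.0 CPM in DKO (8.94 to 20.8). Cluster 8, led by Epha8 and Foxn4 and almost wholly dividing, held 10.2 CPM in DKO_Skp2het and 10.4 CPM in DKO. Immature neuron-like cells, mostly not dividing, held 12.3 CPM in DKO_Skp2het and 16.8 CPM in DKO. Rod-like cells held 14.3 CPM in DKO_Skp2het and 25.7 CPM in DKO, and their intervals overlapped those of the neurogenic progenitor-like cells in both libraries. The Müller glia-like cells, the retinal progenitor-like cells and clusters 2 and 15, a grouping made after the values were seen, were 37.9% of cells but held 73.8% of Ccnd1 UMIs.

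Ccnd3 was high in the same glial class as Ccnd1. Müller glia-like cells of both libraries together held 30.3% of Ccnd3 UMIs and 30.2% of Ccnd1 UMIs. Müller glia-like cells held 139 CPM in DKO_Skp2het (126 to 154) and 122 CPM in DKO (107.4 to 138). Retinal progenitor-like cells held 58.7 CPM in DKO_Skp2het (49.5 to 69.1) and 68.6 CPM in DKO (59.1 to 79.2). Cluster 15 held 25.2 CPM in DKO_Skp2het and 24.9 CPM in DKO. In the 4 groups of cells gathered above lay 56.6% of Ccnd3 UMIs, and since that grouping followed the Ccnd1 values, its shares of the 2 genes are not compared.

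The balance of Ccnd1 and Ccnd3 differed between classes. Ccnd1 was 60.2% of D cyclin UMIs in DKO_Skp2het (55.0 to 65.3) and 59.6% in DKO (55.0 to 64.0) of retinal progenitor-like cells. It was 47.4% in DKO_Skp2het (43.8 to 51.0) and 48.5% in DKO of Müller glia-like cells. In neurogenic progenitor-like cells Ccnd3 was the larger, with 61.0% of D cyclin UMIs in DKO_Skp2het (49.6 to 71.6) and 61.9% in DKO (48.8 to 73.9). The neuronal classes were less even between libraries: Ccnd1 gave 27.9% in DKO_Skp2het (17.1 to 40.8) and 45.8% in DKO (34.0 to 58.0) of rod-like D cyclin UMIs, with overlapping intervals. Cone-like cells, marked by Arr3 and Opn1sw, used mainly Ccnd3, with 89.7% in DKO_Skp2het (35 of 39 UMIs) and 73.2% in DKO (30 of 41 UMIs). Ccnd3 stood there at 58.9 CPM in DKO_Skp2het (41.0 to 82.0) and 53.4 CPM in DKO (36.0 to 76.2), above the 20.8 CPM in DKO_Skp2het and 21.4 CPM in DKO of immature neuron-like cells.

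The Müller glia-like class was itself uneven. Its smaller cluster 16, with 79 DKO_Skp2het and 39 DKO cells and led by Prss56, Col9a1 and Hopx, held the highest levels of Ccnd1, Ccnd3 and Cdk6 of any cluster with at least 30 cells in each library. Ccnd1 reached 307 CPM there in DKO_Skp2het and 270 CPM in DKO, against 100.3 CPM in DKO_Skp2het and 106.8 CPM in DKO in the larger cluster 3. Ccnd3 reached 280 CPM in cluster 16 in DKO_Skp2het and 265 CPM in DKO, against 115.5 CPM in DKO_Skp2het and 106.8 CPM in DKO in cluster 3. Cdk6 reached 235 CPM in cluster 16 in DKO_Skp2het and 311 CPM in DKO, against 53.3 CPM in DKO_Skp2het and 57.5 CPM in DKO in cluster 3, and it made up 44.1% of the kinase UMIs of cluster 16 in DKO_Skp2het (37.4 to 51.1) and 46.6% in DKO (37.8 to 55.5). Cdk4 had the opposite order, with 297 CPM in DKO_Skp2het and 357 CPM in DKO in cluster 16, and 842 CPM in DKO_Skp2het and 834 CPM in DKO in cluster 3. Cluster 3 scored for retinal progenitor markers nearly as highly as for Müller glia markers, with a mean log2 fold of 1.20 against 1.31. With coarser clustering at resolution 0.5, the Müller glia-like class held 72 DKO_Skp2het and 35 DKO cells, and an unnamed cluster scored 1.34 for retinal progenitor markers and 1.16 for Müller glia markers. The levels of the smaller Müller glia-like class were then 239.8 CPM of Ccnd1 in DKO_Skp2het and 249 CPM in DKO. Cdk6 was at 245 CPM in DKO_Skp2het and 289 CPM in DKO, and Cdk4 at 245 CPM in DKO_Skp2het and 346 CPM in DKO.

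**Figure D2:**
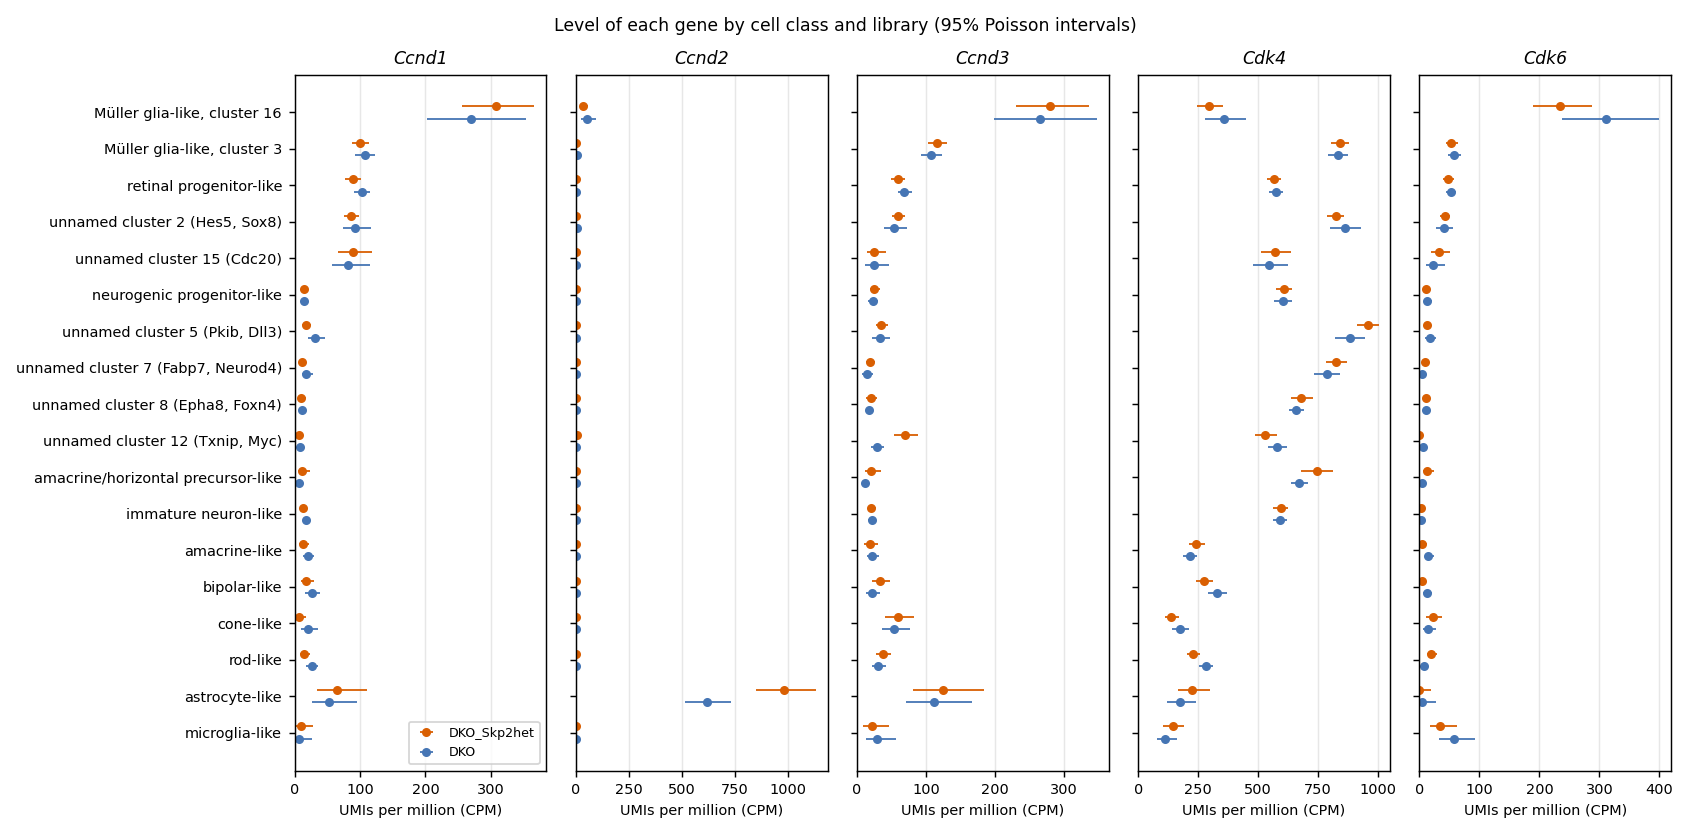
Level of each gene in CPM by cell class or cluster, DKO_Skp2het in orange above DKO in blue, with 95% Poisson intervals and a linear axis of its own per gene. Ccnd1, Ccnd3 and Cdk6 peak in Müller glia-like cluster 16, Ccnd2 in astrocyte-like cells, and Cdk4 is low in that cluster and in the differentiated neurons.

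Ccnd2 lay mostly in a few astrocyte-like cells. These were 18 cells in each library, 0.424% of all cells, and they held 325 of the 398 Ccnd2 UMIs (81.7%). Per cell, Ccnd2 had a lowest count of 0, a median of 6.5 and a highest of 37 UMIs in DKO_Skp2het, and a lowest count of 0, a median of 6 and a highest of 38 in DKO. Of the 18 cells, 17 had a Ccnd2 UMI in DKO_Skp2het and 17 in DKO. The level was 983 CPM in DKO_Skp2het (851 to 1130) and 617 CPM in DKO (515 to 734). These intervals treat UMIs as independent, although 1 dividing cell gave 33 of the 197 UMIs in DKO_Skp2het. They do not cover the spread between cells.

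The cells fitted the name by most of their markers. Gfap, the intermediate filament of astrocytes, stood at 1807 CPM in DKO_Skp2het and 2236 CPM in DKO. Pax2 was found in 14 cells in DKO_Skp2het and 18 in DKO, and S100b in 18 in DKO_Skp2het and 16 in DKO. Aldh1l1 had 0 UMIs in DKO_Skp2het and 1 in DKO, and Cxcl14 had 1 in DKO_Skp2het and 0 in DKO. The acute-phase gene Lcn2 was also among the leading genes, as was the haemoglobin gene Hba-a1, whose 716 UMIs in DKO_Skp2het came from 1 cell. Ccnd2 was among the 10 leading genes too, although it took no part in the clustering.

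In most other classes Ccnd2 was close to the limit of detection. Rod-like, cone-like and microglia-like cells had 0 UMIs in both libraries. After thinning, 61.1% of astrocyte-like cells in DKO_Skp2het and 55.6% in DKO had a Ccnd2 UMI. The share was 0% of the 196 rod-like cells in DKO_Skp2het and of the 147 in DKO, which by 3 counts allows up to 1.53% in DKO_Skp2het and 2.04% in DKO of cells with a UMI at this depth, and does not limit the share of cells that express the gene. The median depth was 10085 UMIs in astrocyte-like and 4370 in rod-like cells of DKO_Skp2het, and 8938 in astrocyte-like and 6788 in rod-like cells of DKO. Among clusters of 30 or more cells in each library, only Müller glia-like cluster 16 was above 10 CPM. It held 32.5 CPM in DKO_Skp2het (13 UMIs) and 51.0 CPM in DKO (10 UMIs). Unnamed cluster 27, nearest to endothelial markers, had only 9 DKO_Skp2het and 4 DKO cells. Ccnd2 stood there at 75.1 CPM in DKO_Skp2het (12 UMIs) and 25.9 CPM in DKO (2 UMIs).

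Cdk4 was broad, with its lowest levels in differentiated neurons, microglia-like cells and astrocyte-like cells. Among groups of at least 30 cells per library the highest level was in cluster 5, led by Pkib and Dll3, with 958 CPM in DKO_Skp2het (914 to 1004) and 883 CPM in DKO (822 to 947). Cluster 2 held 824 CPM in DKO_Skp2het and 862 CPM in DKO. Retinal progenitor-like cells held 567 CPM in DKO_Skp2het and 576 CPM in DKO, and neurogenic progenitor-like cells 608 CPM in DKO_Skp2het and 604 CPM in DKO. Immature neuron-like cells were at 594 CPM in DKO_Skp2het and 592 CPM in DKO, within the interval of the neurogenic progenitors. That class pools 2 unlike clusters. Cluster 6 held 664 CPM in DKO_Skp2het and 637 CPM in DKO. Cluster 9 held 451 CPM in DKO_Skp2het (405 to 501) and 454 CPM in DKO (405 to 507), below the neurogenic progenitors. Differentiated neurons were lower: bipolar-like cells held 276 CPM in DKO_Skp2het and 329 CPM in DKO, and cone-like cells 138 CPM in DKO_Skp2het and 174 CPM in DKO. Microglia-like cells held 144 CPM in DKO_Skp2het and 114 CPM in DKO.

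Cdk6 followed the glial pattern of Ccnd1 and Ccnd3. Müller glia-like cells held 79.6 CPM in DKO_Skp2het (69.4 to 90.8) and 82.1 CPM in DKO (70.1 to 95.6), 9.45% of kinase UMIs in DKO_Skp2het and 9.44% in DKO. Retinal progenitor-like cells held 47.7 CPM in DKO_Skp2het and 52.1 CPM in DKO. Immature neuron-like cells held 2.98 CPM in DKO_Skp2het (7 UMIs) and 1.79 CPM in DKO (5 UMIs). Microglia-like cells had the largest Cdk6 share of kinase UMIs among the named classes, 19.6% in DKO_Skp2het (10.2 to 32.4) and 33.3% in DKO (20.4 to 48.4), from 11 UMIs in DKO_Skp2het and 16 in DKO. The Müller glia-like cells, the retinal progenitor-like cells and clusters 2 and 15 held 72.5% of Cdk6 UMIs and 35.4% of Cdk4 UMIs. They were 37.9% of cells, and since that grouping followed the Ccnd1 values, these shares are not compared.

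Across clusters, Ccnd1, Ccnd3 and Cdk6 varied together more closely than with Cdk4. Over 40 values, from 20 clusters in each of 2 libraries, log2(CPM + 5) of Ccnd1 and Cdk6 had a Pearson r of 0.78 and a Spearman rho of 0.55. Ccnd3 and Cdk6 had an r of 0.76 and a rho of 0.59, whereas Cdk4 and Cdk6 had an r of -0.074 and a rho of 0.0071. Ccnd1 and Ccnd3 had an r of 0.72 and a rho of 0.42. Ccnd2 had an r of 0.73 with Ccnd3, 0.62 with Cdk6 and 0.61 with Ccnd1, so r did not set it apart from these genes. Its rho was lower, at 0.31 with Ccnd3, 0.14 with Cdk6 and 0.35 with Ccnd1. The astrocyte-like cells, with 325 of the 398 Ccnd2 UMIs, are not among these clusters, so the Ccnd2 values rest on few UMIs. The points share libraries and depth, and each cluster enters in both libraries.

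The genes most like each member by this r, among 6085 genes, included Müller glia markers for Ccnd1 and Cdk6. For Ccnd1 they were Crym (0.95), Ndrg2, Dapl1, Rlbp1 and Fxyd1, of which Crym and Rlbp1 are Müller glia markers used in naming. For Ccnd3 they were Nr4a1 (0.85), an immediate early gene, then Rdh10, Cryab, Jund and Hopx. For Cdk6 they were Tsc22d4 (0.90), Cryab, Nr2f6, Ptpra and Slc1a3, the glial glutamate transporter. For Cdk4 they were Erh (0.96), Csrp2, Carhsp1, Snrpe and Ranbp1, of which Snrpe encodes a splicing protein and Ranbp1 a regulator of Ran. For Ccnd2 they were Col9a1 (0.78), Rdh10, Cryab, Slc39a7 and Tsc22d2, with the astrocyte-like cells too few to enter.

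Dividing cells as a whole held less Ccnd3 and more Cdk4 than non-dividing cells in both libraries. Ccnd1 stood at 41.7 CPM in dividing and 49.9 CPM in non-dividing DKO_Skp2het cells, a ratio of 0.836 (0.741 to 0.944). In DKO it stood at 37.6 CPM in dividing and 42.6 CPM in non-dividing cells, a ratio of 0.882 (0.772 to 1.01). Ccnd3 had a ratio of 0.786 in DKO_Skp2het (0.699 to 0.883) and 0.782 in DKO (0.685 to 0.894). Cdk4 stood at 673 CPM in dividing and 560 CPM in non-dividing DKO_Skp2het cells, a ratio of 1.20 (1.16 to 1.24). In DKO it stood at 641 CPM in dividing and 481 CPM in non-dividing cells, a ratio of 1.33 (1.28 to 1.38). Cdk6 had a ratio of 0.889 in DKO_Skp2het (0.756 to 1.04) and 0.870 in DKO (0.726 to 1.04).

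Ccnd2 had a ratio of 0.230 in DKO_Skp2het and 0.0664 in DKO, and all but 1 of the 36 astrocyte-like cells were non-dividing. Without astrocyte-like cells it was 0.458 in DKO_Skp2het (0.209 to 0.945) and 0.480 in DKO (0.233 to 0.975). With the cluster make-up held, which also leaves these cells out, it was 0.748 in DKO_Skp2het (0.0820 to 6.82) and 3.04 in DKO (0.923 to 10.0), so that its direction was not settled outside them. Past a log2 ratio of 0.32 either way, 2 of 5 genes were lower in dividing DKO_Skp2het cells, Ccnd2 and Ccnd3, and 0 were higher. Of all 11297 genes with at least 100 UMIs, 31.3% were lower and 21.8% higher, 53.1% in either direction. In DKO the same 2 were lower and Cdk4 was higher, where 32.5% of 11176 genes were lower and 23.1% higher, 55.6% in either direction. The median log2 ratio was -0.26 in DKO_Skp2het and -0.20 in DKO over the 5 genes, against -0.062 in DKO_Skp2het and -0.058 in DKO over all genes. Median-of-ratios scaling ended the call of Ccnd3, at 0.820 in DKO_Skp2het and 0.814 in DKO, and brought Cdk4 past the size in DKO_Skp2het, at 1.26. With cells thinned, Ccnd3 was at 0.853 in DKO_Skp2het and Cdk4 at 1.24 in DKO, both short of it.

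The differences of Ccnd3 and Cdk4 between states were not seen over 5 clusters with their make-up held. With it equal over the 5 clusters with at least 30 cells of each state, Cdk4 had a ratio of 0.947 in DKO_Skp2het (0.901 to 0.994) and 1.01 in DKO (0.954 to 1.07). Ccnd3 then had a ratio of 1.00 in DKO_Skp2het (0.832 to 1.20) and 0.986 in DKO (0.788 to 1.23), and Ccnd1 had 0.962 in DKO_Skp2het and 0.923 in DKO. The clusters in which every or nearly every cell divides cannot enter this comparison. The same holds for those in which few cells divide, among them cone-like, bipolar-like and microglia-like cells. Ratios over the same 5 clusters without the make-up held are not given. Leaving clusters out and holding their make-up therefore cannot be told apart here.

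Within Müller glia-like cells, dividing cells held 112 CPM of Ccnd3 and non-dividing cells 154 CPM in DKO_Skp2het, a ratio of 0.730 (0.580 to 0.914). In DKO the values were 116 CPM in dividing and 126 CPM in non-dividing cells, a ratio of 0.923 (0.705 to 1.20). Cdk6 stood at 57.5 CPM in dividing and 97.7 CPM in non-dividing DKO cells, a ratio of 0.589 (0.408 to 0.835), and the ratio in DKO_Skp2het was 0.782 (0.577 to 1.05). Both libraries had ratios below 1 for both genes, with 1 interval of each pair including 1, and the shares of clusters 3 and 16 in each state were not held equal here. Ccnd1 made up 50.0% of D cyclin UMIs in dividing and 46.3% in non-dividing Müller glia-like cells of DKO_Skp2het. In DKO it made up 46.1% in dividing and 49.8% in non-dividing cells, within the intervals. In rod-like DKO cells, 33 dividing cells held 399 CPM of Cdk4 and 114 non-dividing cells 238 CPM, a ratio of 1.68 (1.35 to 2.08). The class pools clusters in which Cdk4 in DKO differed, with 202 CPM in cluster 11, 536 CPM in cluster 20 and 524 CPM in cluster 25, and their shares were not held equal. The 12 dividing rod-like cells of DKO_Skp2het were too few to compare.

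The course over proliferation was not even. Cdk4 was lowest in cells without a proliferation UMI, at 479 CPM in DKO_Skp2het and 394 CPM in DKO. It was highest in cells with 3 to 5, at 797 CPM in DKO_Skp2het (766 to 830) and 743 CPM in DKO (712 to 774). In cells with 10 or more it was 599 CPM in DKO_Skp2het and 595 CPM in DKO. Among dividing cells, those with more S than G2M gene UMIs held 830 CPM of Cdk4 in DKO_Skp2het (792 to 869) and 772 CPM in DKO (730 to 816). Those with more G2M than S gene UMIs held 633 CPM in DKO_Skp2het (617 to 649) and 622 CPM in DKO (609 to 636). Ccnd1 was lowest in cells with 6 to 9 proliferation UMIs, at 31.6 CPM in DKO_Skp2het (24.2 to 40.5) and 24.3 CPM in DKO (18.2 to 31.6). The bins hold different cell classes, so their make-up and the cell cycle cannot be told apart here.

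**Figure D3:**
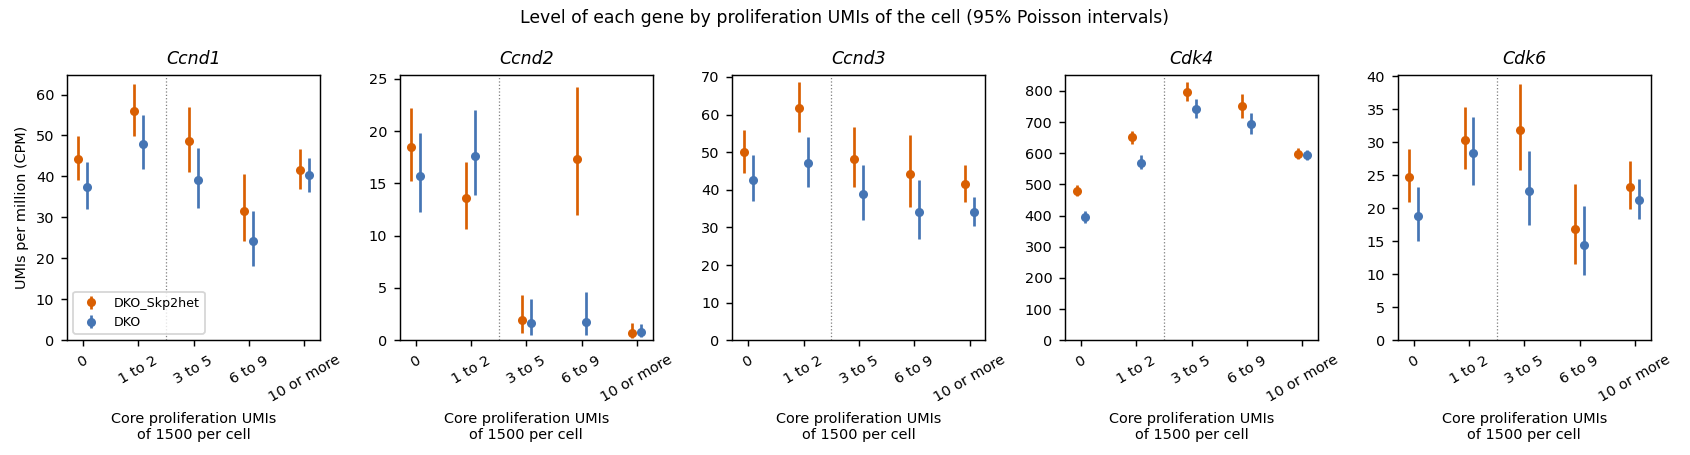
Level of each gene (CPM, 95% Poisson intervals) in cells binned by UMIs of 26 proliferation genes after thinning to 1500 UMIs, DKO_Skp2het in orange left of DKO in blue; cells right of the dotted line are called dividing. Cdk4 is highest at 3 to 5 UMIs in both libraries, and the Ccnd2 value of 17.3 CPM at 6 to 9 UMIs in DKO_Skp2het rests on 34 UMIs, of which 33 came from 1 astrocyte-like cell.

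Between the libraries, all 5 genes were somewhat higher in DKO_Skp2het when cells were summed. Ccnd1 had a ratio of 1.16 (1.06 to 1.27), Ccnd3 one of 1.27 (1.17 to 1.39) and Ccnd2 one of 1.40 (1.14 to 1.72). Cdk4 had a ratio of 1.07 (1.04 to 1.09) and Cdk6 one of 1.20 (1.06 to 1.35). Past a log2 ratio of 0.32, 2 of 5 genes were higher, Ccnd2 and Ccnd3, and 0 were lower, where 9.37% of 12413 genes were higher and 5.57% lower, 14.9% in either direction. With cells thinned to 1500 UMIs neither call held, with a ratio of 0.923 for Ccnd2 (0.538 to 1.602) and 1.16 for Ccnd3 (0.978 to 1.37). The median log2 ratio was 0.26 over the 5 genes and 0.025 over all genes.

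The make-up of the libraries moved with these ratios. Cluster 2, high in Ccnd1, Ccnd3 and Cdk6, was 15.6% of DKO_Skp2het cells and 5.83% of DKO cells. Its median depth in DKO_Skp2het was 3058 UMIs, below the lowest DKO barcode of 3420 UMIs. The 2 shares were therefore not taken at a like depth, and the part of depth in them was not tested. With cluster shares held equal, the Ccnd1 ratio turned to 0.904 (0.826 to 0.990) and that of Cdk6 to 0.943 (0.835 to 1.06). Cdk4 was then at 1.01 (0.987 to 1.04) and Ccnd3 at 1.10 (1.01 to 1.20). The Ccnd2 ratio was 1.34 (1.09 to 1.64) with shares held, and 1.01 (0.620 to 1.64) without astrocyte-like cells. The interval with shares held does not cover the spread between cells, and 81.7% of Ccnd2 UMIs came from 36 astrocyte-like cells.

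In dividing cells, 0 of the 4 genes with at least 100 UMIs passed that size, where 9.90% of 10965 genes were higher and 8.45% lower, 18.4% in either direction. With cells thinned, Ccnd3 at 1.26 (0.982 to 1.61) and Cdk6 at 1.27 (0.921 to 1.75) were past it, with intervals that include 1. Ccnd3 was closest, at 43.6 CPM in DKO_Skp2het and 35.1 CPM in DKO, a ratio of 1.24 (1.10 to 1.41). Ccnd1 had a ratio of 1.11 in these cells, Cdk4 one of 1.05 and Cdk6 one of 1.19. Ccnd2, with 45 UMIs in DKO_Skp2het and 16 in DKO, had a ratio of 3.36 (1.87 to 6.38), and 33 of the 45 came from 1 astrocyte-like cell. Without astrocyte-like cells its ratio was 0.898 (0.388 to 2.02). In non-dividing cells 0 of 5 genes passed, where 9.33% of 11188 genes were higher and 8.67% lower, 18.0% in either direction.

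Among classes with at least 30 cells in each library, the Ccnd3 ratio was largest in cluster 12, led by Txnip, Myc and Gadd45b. It stood there at 69.5 CPM in DKO_Skp2het (68 UMIs in 131 cells) and 28.9 CPM in DKO (39 UMIs in 121 cells), a ratio of 2.41 (1.602 to 3.67). This cluster was singled out after its values were seen. In Müller glia-like cells the Ccnd3 ratio was 1.14 (0.969 to 1.34), and in retinal progenitor-like cells it was 0.856 (0.684 to 1.07). Over all cells the immediate early gene Jun was also higher in DKO_Skp2het, at 508 CPM against 368 CPM in DKO, and its part in the Ccnd3 ratio was not tested.

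**Figure D4:**
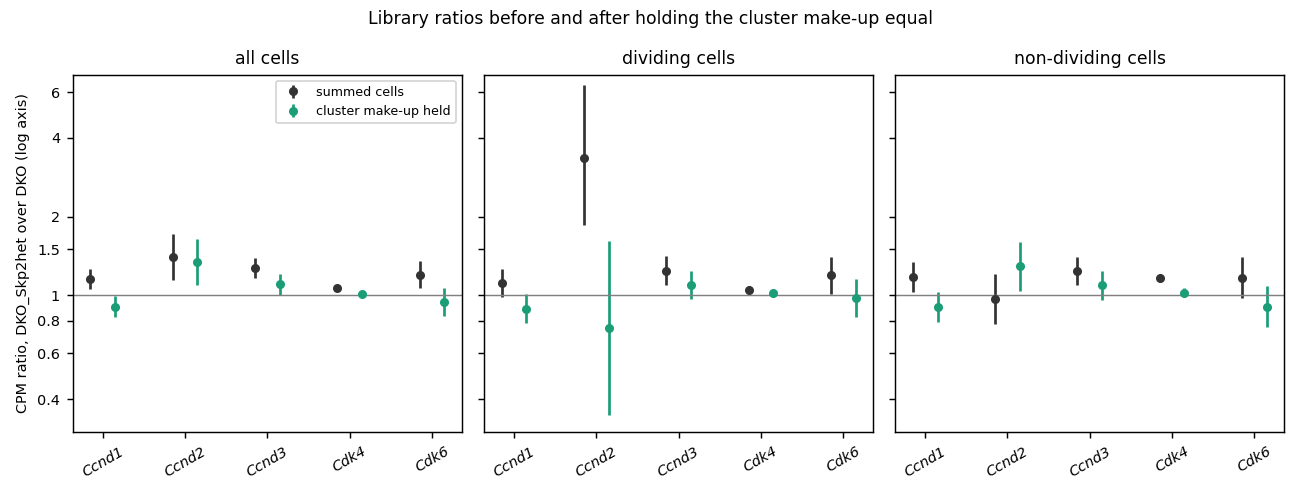
CPM ratio of DKO_Skp2het over DKO (log axis, 95% intervals) for each gene in all, dividing and non-dividing cells, from summed cells (dark) and with the cluster make-up held equal (green). Ccnd1 lies at 1.16 before and 0.904 after holding the make-up in all cells, and Cdk4 at 1.07 before and 1.01 after.

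The partners of the D cyclin kinases were read from a list of 33 genes, of which 31 had at least 100 UMIs in each comparison. The list was written with results of these data known. In all cells 3 of 31 were past that size higher in DKO_Skp2het and 2 lower, near the shares over all genes. The higher ones were Cdkn2a, an INK4 locus gene, at 25.8 CPM in DKO_Skp2het and 19.5 CPM in DKO, Rbl2, which encodes p130, at 11.2 CPM in DKO_Skp2het and 8.43 CPM in DKO, and Jun. The lower ones were Skp2 and Mycn, Mycn standing at 113 CPM in DKO_Skp2het and 146 CPM in DKO, a ratio of 0.779 (0.740 to 0.819). Skp2 differs between the groups by genotype, and it is counted here and among the 2 lower genes in dividing cells. In dividing cells 4 of 31 were higher in DKO_Skp2het (12.9%) and 2 lower (6.45%), against 9.90% and 8.45% over all genes. In non-dividing cells 7 of 31 were higher (22.6%) and 0 lower, against 9.33% and 8.67% over all genes. The 7 were Cdkn2a, Cdkn1c, E2f2, Ccne1, Cdk2, Fbxo4 and Jun, of which Fbxo4 had an interval that includes 1 (1.31, 0.987 to 1.76). Library ratios of the listed genes were not computed with the cluster make-up held.

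In dividing over non-dividing cells, 15 of 31 were higher and 3 lower in DKO_Skp2het, and 16 higher and 4 lower in DKO. Over all genes, 21.8% were higher and 31.3% lower in DKO_Skp2het, and 23.1% higher and 32.5% lower in DKO. Several kinase inhibitors were among the higher ones, whereas Cdkn1c (p57) had a ratio of 1.09 in DKO_Skp2het and 1.32 in DKO and passed the size in DKO alone, and Cdkn2b had too few UMIs. The INK4 gene Cdkn2c (p18) stood at 352 CPM in dividing and 89.9 CPM in non-dividing DKO_Skp2het cells, and at 298 CPM in dividing and 73.7 CPM in non-dividing DKO cells. Cdkn2d (p19) had a ratio of 4.16 in DKO_Skp2het and 3.30 in DKO, and Cdkn1a (p21) had 4.37 in DKO_Skp2het and 3.90 in DKO. Myc had a ratio of 6.69 in DKO_Skp2het (5.08 to 8.95) and 5.71 in DKO (4.22 to 7.89). Myc was among the leading genes of cluster 12, in which 98.5% of DKO_Skp2het and 100% of DKO cells were dividing. The part of that cluster in the Myc ratio was not tested. Cyclin E genes were higher as well, with ratios for Ccne2 of 2.69 in DKO_Skp2het and 2.83 in DKO. Beside these, Cdk4 had 1.20 in DKO_Skp2het and 1.33 in DKO. All of these ratios are from summed cells, and those of the partner genes were not computed with the cluster make-up held.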

How the data were processed

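Counts were deposited by the authors as whole UMI counts per gene and barcode for 2 libraries, and Cell Ranger 2.2.0 and the mm10 build are named per the submitters' processing notes. The authors' barcode filter is not given in the sources used here. Groups came from the genotype labels. A minimum of 500 genes and a maximum of 20% mitochondrial UMIs took out 2 barcodes in DKO_Skp2het and 1 in DKO. Doublets were scored as in Scrublet and removed at an expected rate that grows with the number of barcodes, 216 in DKO_Skp2het and 105 in DKO.

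Counts were scaled to 10000 per cell and log-transformed. From 2000 variable genes, without cell cycle lists and the 5 genes described (4 of which would have been chosen), 30 principal components were taken, with 15 neighbours and leidenalg 0.10.2 at resolution 1.0, which gave 27 clusters. Names came from marker lists of 19 cell types and required a mean log2 fold of at least 1.0, at least 3 markers over 2-fold and no tie among the 10 leading genes. These thresholds were set with the data known. Dividing cells were called with a list of 26 proliferation genes written by hand, because the list of an earlier processing was not used here. No kept cell was below 1500 UMIs.

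Levels are in CPM: a gene's summed UMIs over all UMIs of the same cells, scaled to a common total. Poisson, conditional Poisson and Clopper-Pearson 95% intervals are exact and cover counting error only, and intervals with cluster shares held are normal approximations on the log scale. The upper limit for a share of 0 uses 3 counts. Named genes were the 5 described, the 33 pathway genes where past a log2 ratio of 0.32, and the 5 most similar genes by Pearson r of log2(CPM + 5). Similar genes needed at least 500 UMIs in each library, in clusters of at least 30 cells per library. The genes described, the lists and the classes were chosen with earlier results of these data known. Ratio calls were tested on simulated data. Of the 27998 identifiers, 27645 matched GENCODE vM21 (GRCm38), and promoters came from RefSeq GRCm38.p6. Computation used Python 3.11.15, scanpy 1.11.5, numpy 2.4.6, scipy 1.17.1 and pandas 2.3.3.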

Additional observations from a re-analysis of the deposited data

Results flagged for a closer look

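The Cdk6 ratio of DKO_Skp2het over DKO pointed in opposite directions in some cell classes, and the difference between classes was not tested. In amacrine and horizontal precursor-like cells it was 3.84, from 9 UMIs in DKO_Skp2het and 7 in DKO. In rod-like cells it was 2.48, from 23 UMIs in DKO_Skp2het and 10 in DKO. In cluster 12 there were 0 UMIs in DKO_Skp2het and 7 in DKO, and the ratio with the 0 set to 3 counts over that library's cells was 0.592. The DKO level there, 5.18 CPM, has an interval of 2.08 to 10.7, so the size of that difference was not bounded.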

How the results depend on the processing

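No paired analysis was possible because each genotype is 1 library. Holding the cluster make-up equal and leaving out astrocyte-like cells were chosen after seeing the data, and the cause of a change was not tested unless stated. Keeping doublets moved none of the ratios and shares beyond the interval of the reported value, and median-of-ratios scaling moved the dividing over non-dividing Cdk4 ratio beyond its interval, to 1.26 in DKO_Skp2het and 1.39 in DKO. The same scaling ended the call of Ccnd3 as lower in dividing cells, at 0.820 in DKO_Skp2het and 0.814 in DKO.

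With the make-up held, library ratios over all cells were 0.904 for Ccnd1, 1.10 for Ccnd3, 1.01 for Cdk4 and 0.943 for Cdk6. In dividing cells they were 0.889 for Ccnd1, 0.749 for Ccnd2, 1.09 for Ccnd3, 1.02 for Cdk4 and 0.976 for Cdk6. In non-dividing cells they were 0.903 for Ccnd1, 1.29 for Ccnd2, 1.02 for Cdk4 and 0.905 for Cdk6. Dividing over non-dividing ratios became 0.962 for Ccnd1, 0.748 for Ccnd2, 1.00 for Ccnd3, 0.947 for Cdk4 and 1.15 for Cdk6 in DKO_Skp2het. In DKO they became 3.04 for Ccnd2 (0.923 to 10.0), 0.986 for Ccnd3, 1.01 for Cdk4 and 1.07 for Cdk6. These last Ccnd2 values include no astrocyte-like cells, as that cluster has too few dividing cells.

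Without astrocyte-like cells, the Ccnd2 library ratio was 1.01 over all and 0.898 over dividing cells, and its dividing over non-dividing ratio 0.458 in DKO_Skp2het and 0.480 in DKO. Shares of D cyclin UMIs over all cells became 47.5% Ccnd1, 1.63% Ccnd2 and 50.9% Ccnd3 in DKO_Skp2het, and 49.8% Ccnd1, 1.97% Ccnd2 and 48.3% Ccnd3 in DKO. The Ccnd2 share of dividing DKO_Skp2het cells became 1.15%. Shares in non-dividing cells became 46.7% Ccnd1, 2.04% Ccnd2 and 51.3% Ccnd3 in DKO_Skp2het, and 48.2% Ccnd1, 2.62% Ccnd2 and 49.2% Ccnd3 in DKO.

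With every cell thinned to 1500 UMIs, library ratios over all cells were 0.923 for Ccnd2 and 1.16 for Ccnd3, in dividing cells 0.965 for Ccnd1 and 1.54 for Ccnd2, and in non-dividing cells 0.674 for Ccnd2 and 1.02 for Ccnd3. Dividing over non-dividing ratios were 1.11 for Cdk4 in DKO_Skp2het, and 1.05 for Ccnd1, 0.126 for Ccnd2 and 1.24 for Cdk4 in DKO. Thinned shares over all cells were 47.7% Ccnd1 and 4.38% Ccnd2 in DKO_Skp2het, and 49.3% Ccnd1 and 5.21% Ccnd2 in DKO. In dividing cells they were 2.12% Ccnd2 in DKO_Skp2het, and 55.8% Ccnd1 and 42.6% Ccnd3 in DKO. In non-dividing cells they were 46.6% Ccnd1 and 6.05% Ccnd2 in DKO_Skp2het, and 9.40% Ccnd2 and 48.7% Ccnd3 in DKO. Thinning gives each cell equal weight, and the astrocyte-like cells are deep.

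With cells of at least 3420 UMIs alone, which leaves out 38.1% of DKO_Skp2het cells, library ratios were 1.79 for Ccnd2 and 1.03 for Cdk4 over all cells, and 1.35 for Ccnd2 and 1.08 for Cdk4 in non-dividing cells. The DKO_Skp2het shares were 40.8% Ccnd1 and 11.6% Ccnd2 over all cells, and 37.1% Ccnd1 and 17.3% Ccnd2 in non-dividing cells. The DKO_Skp2het dividing over non-dividing ratio of Cdk4 was 1.28. Calling cells dividing at 2 UMIs gave dividing over non-dividing ratios of 0.973 for Ccnd1, 0.888 for Ccnd3 and 1.31 for Cdk4 in DKO_Skp2het, and 1.47 for Cdk4 in DKO. At 5 UMIs that of Cdk4 was 1.07 in DKO_Skp2het and 1.17 in DKO. At 2 UMIs the Ccnd2 library ratio in dividing cells was 1.81, and its share 16.1% in non-dividing DKO_Skp2het and 2.46% in dividing DKO cells. At 5 UMIs the Ccnd2 share was 13.7% in non-dividing DKO cells. Class levels moved beyond their interval in 14 of 100 cases at resolution 0.5, where no amacrine and horizontal precursor-like class was found and the Müller glia-like class shrank to 72 DKO_Skp2het and 35 DKO cells, in 18 of 110 at resolution 2.0, in 2 of 110 with the 5 genes kept in the clustering, and in 34 of 110 after thinning. With 1 library per genotype, differences between animals cannot be told apart from those between genotypes, and classes with few UMIs, among them cone-like and microglia-like cells, allow wide intervals.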
